A study of Mus musculus with 24 samples.

Results

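T cells lacking Batf and Batf3 were followed from day 2 to day 4 of culture at 2.2 ng/ml of anti-CD3e, the lower of the 2 doses given at day 4. The comparison rests on 6 of the 24 arrays of the series, 3 of double knockout (DKO) cells at day 2 and 3 of DKO cells at day 4, chosen by sample title. All cells were naive CD4 T cells, of 129SvEv strain by the labels, activated with soluble anti-CD3e together with anti-CD28 crosslinked by a plate-bound antibody, in a TH2-polarising culture. DKO cells came from mice without Batf and Batf3. Wild-type (WT) cells with both genes, unstimulated cells at day 0 and cells at day 4 with 10 ng/ml serve below as points of reference, each with 3 arrays. No concentration of anti-CD3e is labelled for the day 2 cells, so time and dose cannot be told apart between day 2 and day 4. Whether replicates were separate mice or cultures is not labelled either. The p-values therefore describe the spread among these arrays only, and that spread may be technical.

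Batf and Batf3 are basic leucine zipper factors of the AP-1 family that lack a transactivation domain of their own. They pair with Jun proteins and recruit Irf4 or Irf8 to composite AP-1 and IRF elements, and in T cells Batf is needed for several helper programmes, TH2, TH17 and T follicular helper cells among them. Activation through the T cell receptor turns naive cells towards growth, glycolysis, sterol synthesis and division, and these programmes recede when the stimulus weakens, while genes of resting and recirculating cells return.

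Levels are array intensities, and a change is the log2 ratio of geometric means at day 4 over day 2, fitted with limma over 24 arrays and 19938 genes. A gene was called at an adjusted p under 0.05 (Benjamini-Hochberg over all genes). The largest rises and falls named below were picked among called genes whose arrays of the 2 days did not overlap. For them the lack of overlap was a condition of being named and adds no evidence. The mean intensity of the median gene, 32.2, is used as a guide to dim genes: near or below it, background makes folds too small. Batf read 29.0, 38.4 and 30.1 at day 2 and 33.4, 26.7 and 36.5 at day 4 in DKO cells, against 565 to 819 and 1420 to 1650 in WT cells. The Batf values thus went with the genotype labels on each of these arrays. Batf3 was dim in both genotypes (21.6 to 31.9 in DKO and 23.5 to 44.2 in WT cells at these times) and checks nothing. All 7 measured CD4 T cell markers lay above the guide. In that list 2 were called higher and 0 lower at day 4, with a median of 0.36 against -0.02 for all genes. The summed intensity of the 7 ranged from 7580 to 9070 at day 2 and from 9360 to 9680 at day 4. Cd4 itself went from 628 ± 43.9 to 596 ± 30.6 (SD, n = 3), which was not called. Of the TH2 cytokines, Il4 (16.1 to 25.6) and Il5 (7.9 to 10.5) lay below the guide on all 6 DKO arrays and Il13 (39.7 to 78.5) above it on all 6. Among these cytokines of the labelled TH2 state, only Il13 thus read above the guide. Il5, Il13 and Cd4 were picked for this check outside the naming rule.

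In DKO cells 746 genes were higher at day 4 (3.74% of the genes tested) and 484 were lower (2.43%). Counts from day 2 to day 4 in the gene lists below are to be read beside these 2 shares. At least 2-fold changes made up 153 of the rises and 49 of the falls, and the median of all genes moved by -0.023. The falls depended more on single arrays than the rises. Without DKO 2.2 ng/ml replicate 1 the counts were 428 higher and 136 lower, without 2.2 ng/ml replicate 2 they were 455 and 293, without day 2 replicate 2 they were 447 and 225, and without day 2 replicate 3 they were 431 and 211.

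The largest rise of all genes tested was that of Eomes, a T-box factor of memory and cytotoxic T cells. Its intensity was 77.6, 71.3 and 146 at day 2 and 619, 670 and 509 at day 4. Every day 4 array lay well above every day 2 array, a 6.39-fold rise (95% CI 4.16 to 9.82, adjusted p = 7.36e-06). Naive DKO cells read 21.3 and cells at 10 ng/ml 46.8, so among the DKO states the high level stood at 2.2 ng/ml. In the promoter windows of RefSeq (GRCm38.p6, 250 bases before to 50 after a gene's start), that of Eomes holds an interferon element, a pair of GAAA blocks with any 2 bases between them, read on both strands. This element is in 3.44% of the 32851 windows, in 6.46% of the 604 risen genes that have a window and in 3.89% of all 15614 tested genes that have one. The stretch is shown because IRF proteins can bind such blocks, beside that of Stat2, which also rose, with the element in capitals. It begins at base -154 from the start in Eomes and at -222 in Stat2, where it reads on the opposite strand. A match is a description of the letters and not a site in use.

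Eomes, chr9:118478005-118478074, plus strand: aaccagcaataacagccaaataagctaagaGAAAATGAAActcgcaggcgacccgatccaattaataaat
Stat2, chr10:128270248-128270315, plus strand: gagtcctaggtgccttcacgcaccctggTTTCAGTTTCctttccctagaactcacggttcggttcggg

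Foxp3, the lineage factor of regulatory T cells, gave the smallest adjusted p of all genes tested. Its intensity was 63.2, 66.6 and 62.4 at day 2 and 263, 238 and 210 at day 4, a 3.68-fold rise (95% CI 3.03 to 4.48, adjusted p = 1.97e-08). The groups were far apart, and the day 4 level also stood above naive cells (83.3) and cells at 10 ng/ml (49.4). Among 13 measured regulatory T cell genes 3 rose and 2 fell, and their median was -0.07 against -0.02 for all genes. Lrrc32, which presents latent TGF-beta, rose with a log2 change of 1.13 (adjusted p = 0.00289). Entpd1, an ectonucleotidase, was called at 0.79 (adjusted p = 0.0376), a call lost when any single array of the 6 other than DKO 2.2 ng/ml replicate 1 was left out. Il2ra, the high-affinity chain of the IL-2 receptor, went the other way, from 1590, 1590 and 1370 to 802, 977 and 913 (log2 change -0.76, adjusted p = 0.0289). The arrays did not overlap, but the call was lost when any single array of the 6 was left out. Nrp1, a semaphorin receptor, was the other fall (-0.75). The count of falls was 0 without DKO 2.2 ng/ml replicate 3 or day 2 replicate 3 and 1 without any other single array of the 6. Ikzf2, also known as Helios, was dim at both times (log2 change 0.05).

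Bcl6, a repressor that opposes effector programmes and drives T follicular helper cells, rose from 43.5, 27.2 and 47.1 to 159, 125 and 166 (log2 change 1.96, adjusted p = 0.00065). Its groups did not overlap. Ikzf3, an Ikaros family factor, rose from 197, 135 and 180 to 417, 357 and 329 (1.12, adjusted p = 0.000898). Of 15 effector regulators 5 rose and 2 fell, and the 2 other rises, Tox (0.61) and Rora (0.7), each lost their call without some arrays, so that the count of rises was 3 without DKO 2.2 ng/ml replicate 1 or without day 2 replicate 3. Without any other single array of the 2 days that count was at most 4. Bhlhe40, a factor that supports cytokine production, fell from 95.1, 104 and 81.1 to 32.9, 37.9 and 51.2 (log2 change -1.22, adjusted p = 0.00457). It stood at 380 at 10 ng/ml. Runx3 was called lower at -0.6, but the call was lost without DKO 2.2 ng/ml replicate 2 or day 2 replicate 2. Tbx21 and Prdm1, the regulators of TH1 cells and of terminal effectors, stayed dim at both times.

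**Figure D1:**
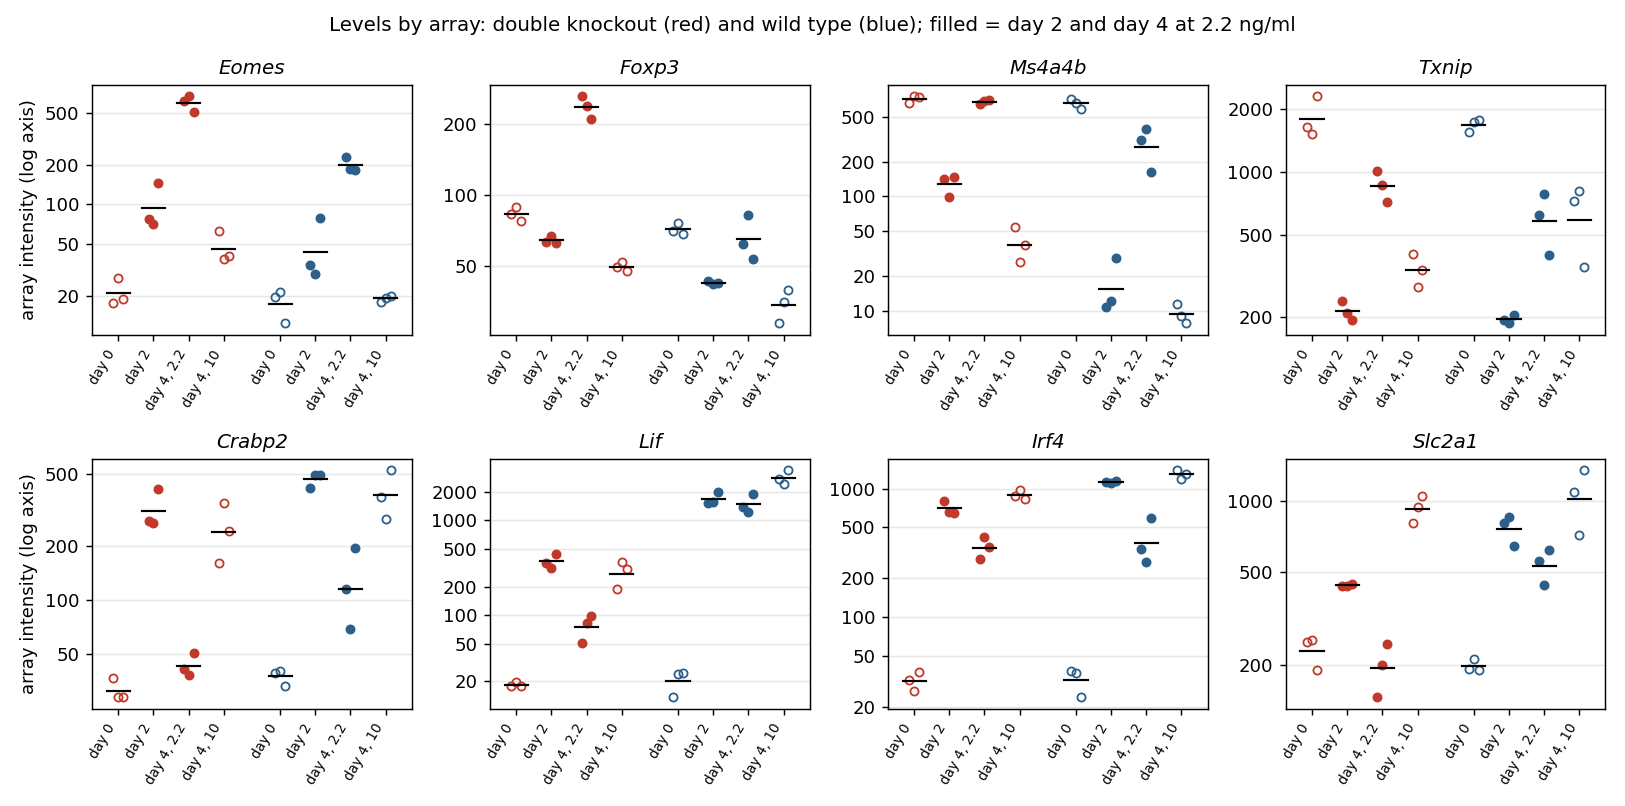
Array intensity (log axis) of 8 genes in every state of both genotypes. Points are single arrays, bars are geometric means of 3 arrays, red is DKO and blue is WT, and filled points are day 2 and day 4 at 2.2 ng/ml. In DKO cells Eomes, Foxp3, Ms4a4b and Txnip were higher on every 2.2 ng/ml array than on any day 2 array, and Crabp2, Lif, Irf4 and Slc2a1 were lower.

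Of 16 measured naive and quiescence genes 9 rose and 0 fell, with a median of 0.56 against -0.02 for all genes. Txnip, an arrestin-like protein that restrains glucose uptake, went from 239, 211 and 194 to 1010, 870 and 716 (log2 change 2.01, adjusted p = 2.06e-05). S1pr1, the receptor that lets T cells leave lymph nodes, went from 207, 180 and 223 to 716, 669 and 493 (1.61, adjusted p = 0.00065). No array of one day reached the range of the other in either gene, yet both stayed below naive cells, at 1830 and 2310. Btg2, an antiproliferative gene, rose with a log2 change of 1.21 (adjusted p = 9.14e-05) and Klf3, a partner in the quiescence network of Klf2, with 0.81 (adjusted p = 0.00133). Pik3ip1, a brake on PI3 kinase, rose with 1.02, a call lost without day 2 replicate 2. The remaining rises were those of Ccr7, Foxo1, Foxp1 and Lef1. Il7r, the IL-7 receptor chain of resting cells, did not follow them (694 ± 141 and 551 ± 75.2, SD, n = 3, log2 change -0.32, adjusted p = 0.433). The count fell from 9 to 5 when DKO 2.2 ng/ml replicate 1, 2.2 ng/ml replicate 2, day 2 replicate 2 or day 2 replicate 3 was left out.

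Ms4a4b, a membrane protein of the CD20 family, went from 142, 97.9 and 149 to 644, 689 and 701 (log2 change 2.41, adjusted p = 2.95e-05), near its naive level of 717. Gpr65, a proton-sensing receptor, went from 112, 97.7 and 111 to 420, 411 and 331 (1.86, adjusted p = 0.000187), at the naive level of 415. In both genes day 4 at 2.2 ng/ml had returned to the naive level while 10 ng/ml stood at 39.3 and 34.9. Ms4a4c (1.89), Tcp11l2 (1.98), Trp53inp1 (1.80), a p53 target, and Calhm6 (1.81) rose without overlap as well. Ms4a4b and Ms4a4c are related in sequence and may share signal.

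Of 8 measured GIMAP GTPases, which support lymphocyte survival, 6 rose and 0 fell (median 0.52). Gimap4 went from 833, 668 and 639 to 1360, 1410 and 1300 (log2 change 0.94, adjusted p = 0.000314) and Gimap8 had a change of 0.78 (adjusted p = 0.00457). The 6 became 3 without DKO 2.2 ng/ml replicate 1 or without replicate 2, since Gimap1 and Gimap6 were among the members that lost their calls in both cases. Without any other single array of the 2 days the count was at most 4. Of 18 survival and death genes 4 rose and 1 fell, where 3.74% of all genes rose and 2.43% fell. Mcl1 (0.72, adjusted p = 0.000767) and Bcl2 (0.66, adjusted p = 0.00272), both inhibitors of mitochondrial apoptosis, were higher, and Tnfrsf10b, a TRAIL receptor, was lower (-1.07, adjusted p = 0.00322).

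Other large rises took genes above their naive levels. Tdgf1, a co-receptor of Nodal signalling, went from 53.2, 42.3 and 23.1 to 144, 256 and 210 (log2 change 2.4, adjusted p = 1.45e-05). Arhgap20 went from 77.0, 42.7 and 45.0 to 195, 301 and 230 (2.17, adjusted p = 2.52e-06). Cygb, cytoglobin, went from 51.2, 49.8 and 43.6 to 286, 178 and 171 (2.1, adjusted p = 3.28e-06). As with Eomes, all 3 were higher at day 4 with 2.2 ng/ml than in naive cells (84.6, 20.6 and 35.8) and than at 10 ng/ml (39.1, 20.4 and 42.4). Klk1b22, a kallikrein, rose from 85.9, 45.8 and 24.7 to 289, 149 and 182 (2.11, adjusted p = 0.000852); it stayed below naive cells (373), and near-identical family members may share its signal.

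**Figure D2:**
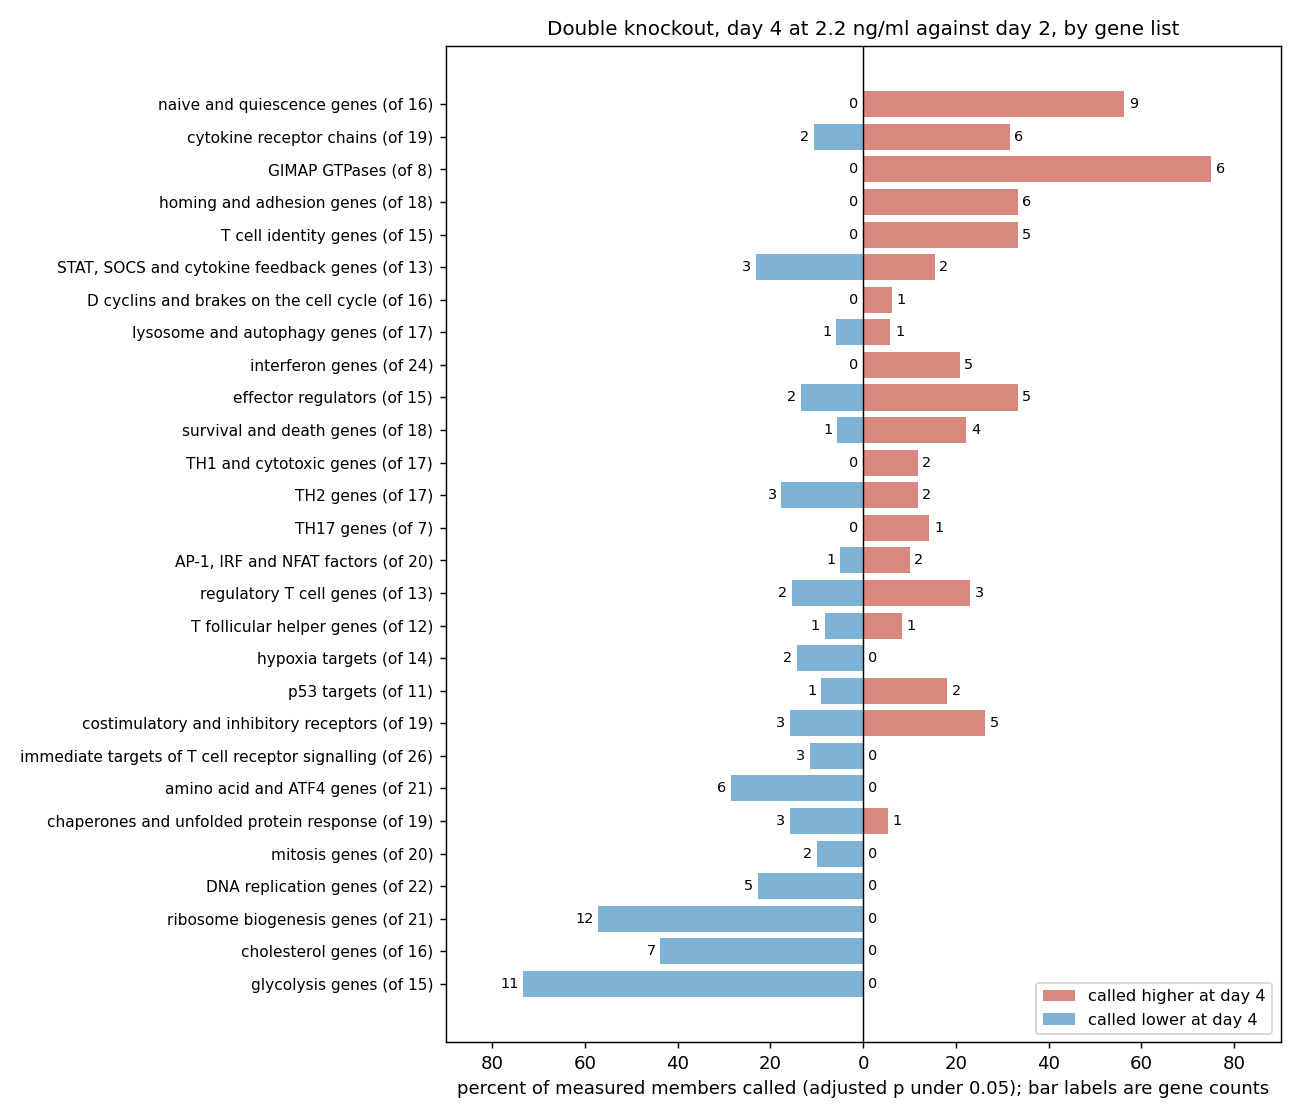
Percent of measured members called higher (red, to the right) or lower (blue, to the left) in DKO cells at day 4 with 2.2 ng/ml against day 2, for 28 gene lists ordered by their median change, with counts beside the bars. GIMAP and naive genes lead on the right with 6 of 8 and 9 of 16, and glycolysis and ribosome biogenesis genes on the left with 11 of 15 and 12 of 21.

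Of 19 cytokine receptor chains 6 rose and 2 fell (median 0.55). Il18r1, a receptor chain for IL-18, rose from 13.5, 17.0 and 13.7 to 53.8, 56.2 and 40.6 (log2 change 1.76, adjusted p = 5.93e-06), still far under its naive level of 419. Tgfbr1 rose from 334, 258 and 329 to 847, 688 and 543 (1.16, adjusted p = 0.000392) and stood above naive cells (208). Both chains of the TGF-beta receptor were higher, Tgfbr2 with 0.85 (adjusted p = 0.00123), as were Il21r (0.86, adjusted p = 0.000311) and Ifngr2 (0.85, adjusted p = 0.00143). The falls were Il2ra and Il12rb1, the latter picked after its values were seen. Without day 2 replicate 3 the count of falls was 1, and without any other single array of the 6 it was 0.

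Of 19 costimulatory and inhibitory receptors 5 rose and 3 fell (median -0.1). Cd27, a TNF receptor family member of naive and memory cells, went from 240, 272 and 288 to 621, 591 and 573 (log2 change 1.16, adjusted p = 0.000205). Cd83 went from 403, 369 and 344 to 646, 742 and 700 (0.9, adjusted p = 4.61e-05), and Cd96, a receptor for nectin family ligands, had a change of 0.99 (adjusted p = 0.0069). The arrays of the 2 days did not overlap in these 3 genes. Cd83 was 34.1 in naive cells and so moved further from it, whereas Cd27 and Cd96 moved back towards naive levels of 1090 and 379. Tnfrsf4, known as OX40, fell from 658, 630 and 640 to 293, 470 and 420 (-0.73, adjusted p = 0.0121), a call lost without DKO 2.2 ng/ml replicate 1. The count of rises was 3 without DKO 2.2 ng/ml replicate 2 or day 2 replicate 3, and the count of falls 1 without DKO 2.2 ng/ml replicate 1.

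Of 18 homing and adhesion genes 6 rose and 0 fell (median 0.47). Ccr9, a gut-homing receptor, went from 16, 16.4 and 13.4 to 48.3, 41.4 and 37.0 (log2 change 1.46, adjusted p = 0.00013). Cd44, an adhesion receptor of activated cells, went from 351, 229 and 212 to 497, 505 and 480 (0.94, adjusted p = 0.000366) and was 24.6 in naive cells. Selplg, the ligand of selectins, rose with 0.74 (adjusted p = 0.00386). Thus members typical of resting cells and Cd44, typical of activated cells, were higher at the same time.

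Of 24 interferon genes 5 rose and 0 fell, while the median was only 0.13. Ddx58, which encodes the RNA sensor RIG-I, went from 52.5, 42.8 and 40.3 to 92.1, 108 and 113 (log2 change 1.21, adjusted p = 0.000419). Stat2, a subunit of the factor that interferons activate, went from 67.7, 44.4 and 38.2 to 81.7, 97.9 and 95.6 (0.91, adjusted p = 0.00147). Xaf1 (1.22, adjusted p = 0.00114) and Iigp1 (1.13, adjusted p = 0.00327) rose as well. Each stayed below its naive level (481, 139, 232 and 123). Typical interferon-induced genes such as Ifit1, Mx1 and Oas2 had changes of 0.06, 0.1 and 0.11 and were not called; they were picked outside the naming rule. The fifth rise, Samd9l, lay below the guide of 32.2 on all 6 arrays, and its call was lost without day 2 replicate 2. Irf1, an interferon regulatory factor of the AP-1, IRF and NFAT list, rose from 97.5, 82.3 and 68.0 to 147, 179 and 166 (1, adjusted p = 0.000398), as did Irf2 (0.78, adjusted p = 0.00301). Stat4, which carries IL-12 signals, rose from 131, 98.8 and 131 to 337, 386 and 396 (1.64, adjusted p = 3.28e-06).

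Irf4, the partner of Batf and a gene whose level follows receptor signal strength, fell. Its intensity was 805, 664 and 652 at day 2 and 281, 418 and 352 at day 4. The groups did not overlap, and the level was 2.04-fold lower (95% CI 1.5 to 2.77, adjusted p = 0.00449). It remained above naive cells (31.9) and under cells at 10 ng/ml (896). No other member of the 20 AP-1, IRF and NFAT factors fell, and 2 rose, Irf1 and Irf2. Without day 2 replicate 3 the count of falls was 2.

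Among 26 immediate targets of T cell receptor signalling 0 rose and 3 fell (median -0.21), where 3.74% of all genes rose and 2.43% fell. Il2 went from 46.5, 104 and 136 to 15.1, 35.7 and 34.3 (log2 change -1.71, adjusted p = 0.0219). Myc went from 1640, 2140 and 1950 to 1130, 1500 and 1440 (-0.5, adjusted p = 0.0209). Dusp6, a phosphatase induced by ERK signalling, had a change of -0.91 (adjusted p = 0.0114). The count of 3 was 0 without DKO 2.2 ng/ml replicate 1 or day 2 replicate 3 and 1 without day 2 replicate 2. Egr1, Egr2, Egr3 and Nr4a1, direct reporters of receptor signals, had changes of 0.09, 0.49, -0.25 and -0.02 and were not called, so only some members of this list were called.

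The largest fall of all genes tested was that of Crabp2, a carrier that delivers retinoic acid to the nucleus. It read 275, 267 and 414 at day 2 and 41.2, 38.0 and 50.5 at day 4, 7.27-fold lower (95% CI 4.83 to 11, adjusted p = 3.28e-06). The day 4 level was close to naive cells (31.3), and 10 ng/ml stood at 249. Lif, a cytokine of the IL-6 family, went from 358, 314 and 444 to 51.1, 82.3 and 96.9, 4.97-fold lower (95% CI 3.47 to 7.12, adjusted p = 4.82e-06). Socs2, a feedback inhibitor of cytokine signalling, went from 157, 234 and 221 to 66.1, 98.1 and 107 (log2 change -1.18, adjusted p = 0.00321). In none of these did the days overlap. Of 13 STAT, SOCS and feedback genes 2 rose, Stat4 and Cish, and 3 fell, Lif, Socs2 and Pim1. Among all genes 3.74% rose and 2.43% fell. The count of rises was 1 without DKO 2.2 ng/ml replicate 2 or day 2 replicate 3, and those of Cish and Pim1 were the calls that depended on single arrays.

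Of 17 TH2 genes 2 rose and 3 fell, with a median of 0, where 3.74% of all genes rose and 2.43% fell. Ccr8, a chemokine receptor of TH2 and regulatory cells, went from 166, 174 and 144 to 64.2, 40.7 and 34.5 (log2 change -1.84, adjusted p = 3.28e-06), without overlap. Gata3, the TH2 lineage factor, went from 829, 685 and 729 to 496, 551 and 501 (-0.53, adjusted p = 0.0132). Ccr4 had a change of -0.46 (adjusted p = 0.0406). Without DKO 2.2 ng/ml replicate 1 or without day 2 replicate 1 the count of falls was 1, since Gata3 and Ccr4 lost their calls. Ecm1, a secreted protein of TH2 cells, rose from 352, 375 and 220 to 683, 641 and 699 (1.13, adjusted p = 0.000767). Il4ra, the IL-4 receptor chain, was the other rise, at 0.56, and the count of rises was 1 without DKO 2.2 ng/ml replicate 1 or 2 or day 2 replicate 2 or 3.

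Of 15 glycolysis genes 11 fell and 0 rose (median -0.71). Slc2a1, the glucose transporter GLUT1, went from 435, 434 and 443 to 145, 200 and 246, with a log2 change of -1.18 (adjusted p = 0.000699). Aldoa, aldolase, went from 2270, 2450 and 2360 to 947, 1280 and 1510 (-0.94, adjusted p = 0.00073). Tpi1, triosephosphate isomerase, went from 1090, 970 and 889 to 407, 510 and 620 (-0.96, adjusted p = 0.00276). Each of the 3 was lower on every day 4 array, and Slc2a1 stood around its naive level (231). Pgam1 (-0.85), Pgk1 (-0.71) and Pkm (-0.56) fell too. Without DKO 2.2 ng/ml replicate 1 the 11 became 7. The same list had 12 of 15 members higher at 10 ng/ml than at 2.2 ng/ml, where 4.47% of all genes were higher and 3.68% lower (891 and 734, or 862 and 881 after quantile normalization). The 2.2 ng/ml arrays are shared by both comparisons, here and wherever 10 ng/ml is set beside them.

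Ak4, Egln3 and Fads2 were among the largest falls. Ak4, a mitochondrial adenylate kinase, went from 77.5, 127 and 123 to 18.1, 29.2 and 17.2 (log2 change -2.35, adjusted p = 0.00046). Egln3, an oxygen sensor and target of hypoxia-inducible factors, went from 121, 146 and 159 to 46.8, 43.3 and 62.1 (-1.5, adjusted p = 0.000165). Fads2, a fatty acid desaturase, went from 118, 36.1 and 105 to 21.4, 19.5 and 30.9 (-1.7, adjusted p = 0.00118). None of these overlapped between days, and at 10 ng/ml they stood at 218, 611 and 514, above day 2. Of 14 hypoxia targets, however, only Egln3 and Higd1a were called lower and the median was -0.08. Among all genes 2.43% were called lower. The count was 1 without DKO 2.2 ng/ml replicate 1, 2 or 3 or day 2 replicate 2 or 3. Other large falls were those of Nme4 (-1.76), Chchd4 (-1.42) and Gpd2 (-1.32), which encode mitochondrial proteins, and of Mfsd2a (-1.31), a transporter of lysophosphatidylcholine.

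Of 16 cholesterol genes 7 fell and 0 rose (median -0.62). Hmgcs1, which makes HMG-CoA, the substrate of the rate-limiting reductase, went from 382, 300 and 272 to 180, 198 and 200 (log2 change -0.71, adjusted p = 0.00173). Lss, lanosterol synthase, went from 104, 94.5 and 75.7 to 44.9, 42.3 and 49.7 (-0.99, adjusted p = 0.00038), and Cyp51 had a change of -0.66 (adjusted p = 0.00564). The days did not overlap in these genes, and all 3 were above day 2 at 10 ng/ml (647, 169 and 502). The 7 became 3 without DKO 2.2 ng/ml replicate 1 and 4 without day 2 replicate 2 or 3. All 16 members were called higher at 10 ng/ml than at 2.2 ng/ml, as were 4.47% of all genes. The promoter stretch of Hmgcs1 with its sterol element (TCACNCCAC, both strands, in capitals, from base -137) is shown because SREBP factors act on such elements. Hmgcs1 was the only match in this list, 1 of 12 genes with a window, and the windows of Lss and Cyp51 held none. The element is in 1.24% of all promoter windows, 1.79% of the windows of fallen genes and 1.4% of those of all genes tested.

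Hmgcs1, chr13:119690184-119690252, plus strand: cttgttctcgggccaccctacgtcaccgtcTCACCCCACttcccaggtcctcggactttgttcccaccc

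Of 21 amino acid and ATF4 genes 6 fell and 0 rose (median -0.26). Slc7a5, the large neutral amino acid transporter, went from 522, 494 and 540 to 309, 340 and 279 (log2 change -0.75, adjusted p = 0.00592), and Atf4 itself had a change of -0.6 (adjusted p = 0.00803). The count was 1 without DKO 2.2 ng/ml replicate 1 and 3 without 2.2 ng/ml replicate 2, day 2 replicate 2 or day 2 replicate 3. Without any other single array of the 2 days it was at most 5. Of 21 ribosome biogenesis genes 12 fell and 0 rose (median -0.55). Polr1b, a subunit of RNA polymerase I, went from 152, 168 and 122 to 79.8, 87.3 and 78.9 (-0.83, adjusted p = 0.0141). Nop2, an rRNA methyltransferase, went from 161, 252 and 156 to 120, 103 and 108 (-0.75, adjusted p = 0.0115). Although 21 of 21 fitted changes were below 0, the number called hung on single arrays: it was 1 without DKO 2.2 ng/ml replicate 1 or day 2 replicate 2, 6 without 2.2 ng/ml replicate 2 and 5 without day 2 replicate 3. Without any other single array of the 2 days it was at most 9. Between the doses, 0 of these genes were called in either direction at 10 against 2.2 ng/ml. Of all genes 4.47% were called higher and 3.68% lower in that comparison. Only 1 of the 21 fitted dose changes was above 0 (median -0.19).

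Of 22 DNA replication genes 5 fell and 0 rose (median -0.46). Mcm10, a factor that helps to activate the replicative helicase, went from 230, 163 and 185 to 91.0, 114 and 116 (log2 change -0.84, adjusted p = 0.0026), and its days did not overlap. Cdc6, a licensing factor, went from 181, 218 and 225 to 113, 127 and 118 (-0.8, adjusted p = 0.00994), and Mcm5, a helicase subunit, from 377, 405 and 419 to 238, 256 and 293 (-0.61, adjusted p = 0.0133). The count was 1 without DKO 2.2 ng/ml replicate 1 and 2 without day 2 replicate 3. Of 20 mitosis genes only Aurka (-0.68) and Cenpe (-0.43) were called lower, and none higher, where 2.43% of all genes were called lower. Yet 0 of the 20 fitted changes were above 0, with a median of -0.32 against -0.02 for all genes. Mki67, a proliferation marker picked outside the naming rule, read 1070 ± 103 and 870 ± 20.5 (SD, n = 3, adjusted p = 0.29) against 21.6 in naive cells. The mitosis count was 0 without day 2 replicate 3 and 1 without day 2 replicate 1 or 2 or 2.2 ng/ml replicate 1 or 2. Division genes were still at high levels at day 4, with a median of 4.17 above naive cells for mitosis and 1.97 for replication genes, where 11.6% of all genes were called higher and 8.28% lower than in naive cells (2320 and 1651 genes, or 2025 and 2219 after quantile normalization).

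The promoters of Cdc6 and Mcm5 are shown with the E2F element (TTTGGCGC or TTTCCCGC, both strands, in capitals), which E2F factors use at the start of S phase. It begins at base -138 in Cdc6 and -149 in Mcm5. The element is in 5.1% of the windows of fallen genes, 1.49% of windows of risen genes, 2.56% of those of all genes tested and 1.56% of all windows.

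Cdc6, chr11:98907983-98908050, plus strand: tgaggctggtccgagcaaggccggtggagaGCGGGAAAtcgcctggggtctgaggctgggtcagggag
Mcm5, chr8:75109330-75109397, plus strand: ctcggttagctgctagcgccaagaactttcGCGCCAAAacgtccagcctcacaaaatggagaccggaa

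**Figure D3:**
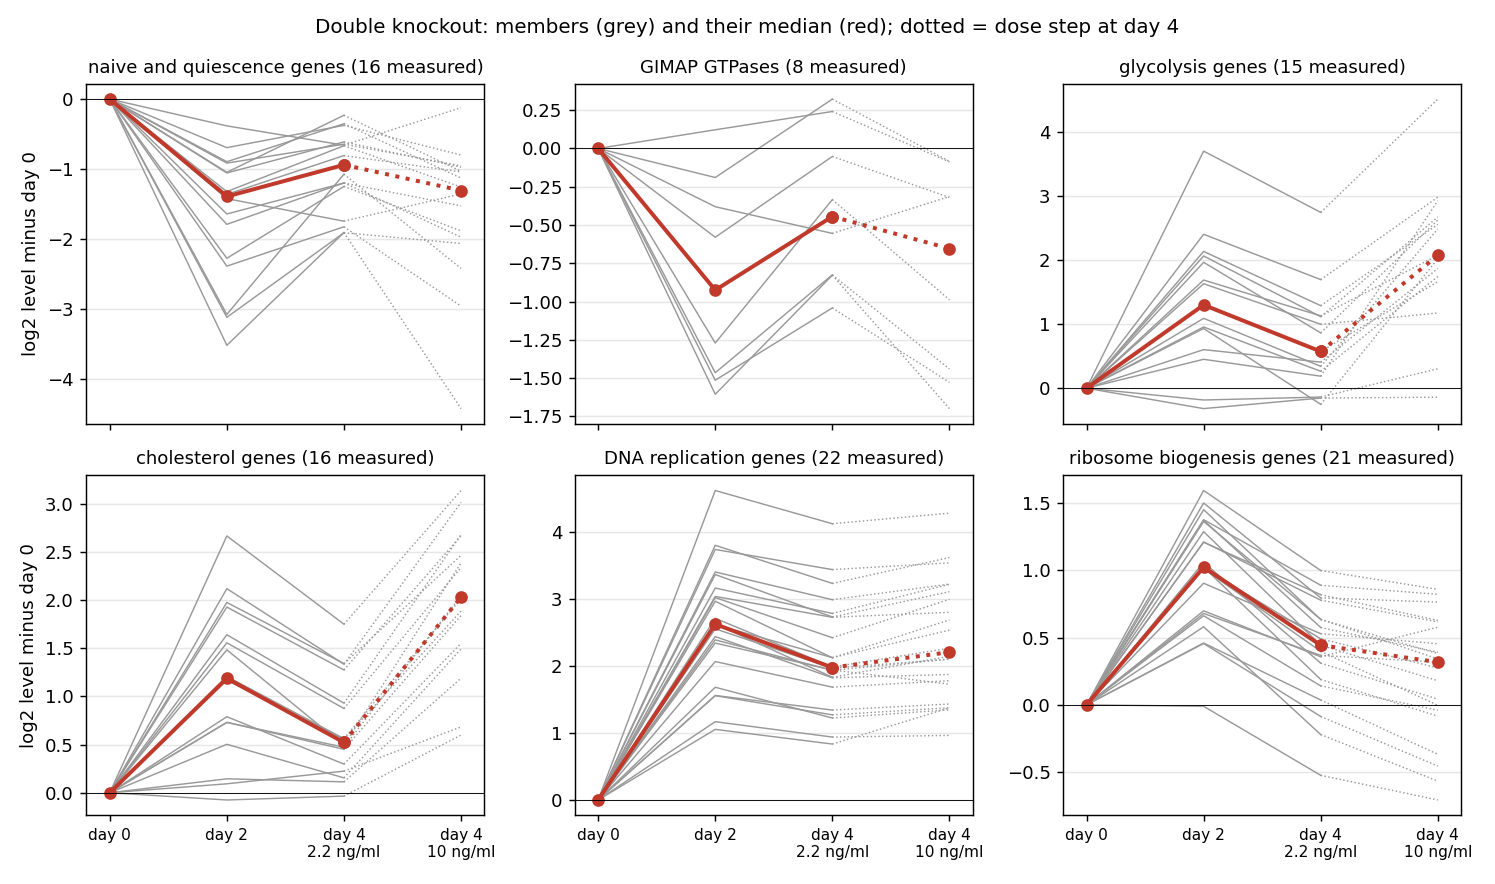
Log2 level relative to day 0 in DKO cells for members of 6 gene lists (grey lines) and their median (red). Solid lines join day 0, day 2 and day 4 at 2.2 ng/ml, and dotted lines join 2.2 to 10 ng/ml at day 4. The glycolysis median was 1.30 at day 2 and 0.57 at day 4 with 2.2 ng/ml, and the naive gene median -1.39 and -0.94.

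The position of these groups between naive cells and day 2 differed from list to list. From day 0 to day 2, 15.3% of all genes were called higher and 13.3% lower (3045 and 2654, against 2864 and 2918 after cyclic loess and 2775 and 3115 after quantile normalization). The median of glycolysis genes stood 1.30 above naive cells at day 2 and 0.57 above at day 4. That of cholesterol genes stood at 1.19 and 0.52, that of ribosome biogenesis genes at 1.02 and 0.44, and that of naive genes at -1.39 and -0.94. Each median had thus moved part of the way back. At 10 ng/ml the medians stood above 2.2 ng/ml by 1.46 for glycolysis and 1.39 for cholesterol genes, while those of naive and GIMAP genes differed by -0.51 and -0.45. All these differences share arrays with the change from day 2 to day 4 and are given side by side only.

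The same interval in WT cells shows which of these changes were also seen with Batf present. In WT cells 945 genes were higher (4.74%) and 1288 lower (6.46%) at day 4 with 2.2 ng/ml than at day 2. The excess of falls was not seen after cyclic loess, with 1089 and 1103, or after quantile normalization, with 970 and 985. These counts were 621 and 842 without WT 2.2 ng/ml replicate 1, 569 and 654 without replicate 2, and the falls were 857 without WT day 2 replicate 3. Across the 19938 genes the changes of the 2 genotypes, which share no array, correlated with Pearson's r = 0.558 and a Spearman rank coefficient of 0.422, as a description over genes that are not independent. Of the 746 genes that rose in DKO cells 380 were also called higher in WT cells, 50.9% of the DKO and 40.2% of the WT rises. Of the 484 that fell 295 were also called lower, 61.0% of the DKO and 22.9% of the WT falls. Only 3 risers and 2 fallers were called in the opposite direction. Eomes rose in WT cells too, from 34.4, 29.2 and 79.0 to 232, 186 and 182 (log2 change 2.21), and so did Ms4a4b (4.12), Gpr65 (2.84), Bcl6 (2.27), S1pr1 (1.91), Stat4 (1.63) and Txnip (1.57). Crabp2 (-2.02), Irf4 (-1.58), Socs2 (-1.45) and Ccr8 (-1.23) fell in WT cells as well. By list, ribosome biogenesis genes had 21 of 21 members lower in WT cells and naive genes 9 of 16 higher. Glycolysis genes had 4 of 15 lower with a median of -0.34. The difference between genotypes was called for 0 genes of the glycolysis or ribosome list. Of all genes only 0.216% were called higher and 0.301% lower in that test, so 0 calls in lists this small say little. The fitted difference was above 0 in 21 of 21 ribosome biogenesis genes (median 0.33, against -0.03 for all genes). It was above 0 in 3 of 15 glycolysis genes (median -0.29).

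**Figure D4:**
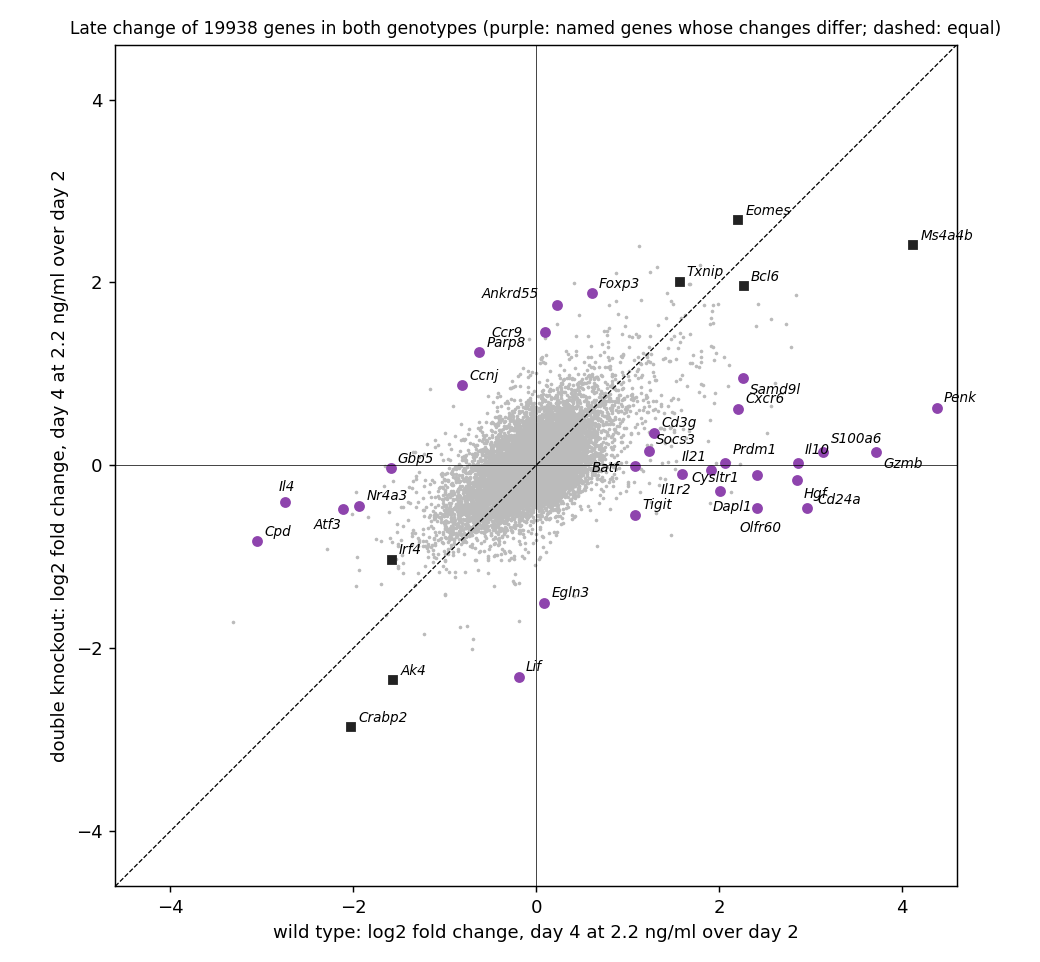
Log2 change from day 2 to day 4 at 2.2 ng/ml in WT cells (horizontal axis) and DKO cells (vertical axis) for 19938 genes (grey). Purple points are 30 named genes whose changes differ between genotypes, black squares are other named genes, and the dashed line marks equal change. Gzmb, Il10, Penk and Hgf lie far to the right at a DKO change near 0, and Lif and Egln3 lie below the line.

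A test of the difference itself (DKO change minus WT change) called 43 genes higher (0.216%) and 60 lower (0.301%); after quantile normalization of the deposited values the split was 24 and 59. The 43 became 27, 21, 90, 25 and 18 without DKO 2.2 ng/ml replicates 1 and 2 and DKO day 2 replicates 1, 2 and 3, and 24, 21, 24 and 23 without WT 2.2 ng/ml replicate 1 and WT day 2 replicates 1, 2 and 3. The 60 became 93 without WT 2.2 ng/ml replicate 3. Foxp3 rose 3.68-fold in DKO cells and from 43.2, 41.6 and 42.2 to 62.1, 82.1 and 53.5 in WT cells. Its log2 changes differed by 1.27 (95% CI 0.87 to 1.67, adjusted p = 0.001). Parp8, an ADP-ribosyltransferase, rose in DKO cells from 54.4, 34.4 and 55.3 to 113, 97.0 and 126 and fell in WT cells (log2 changes 1.24 and -0.62, adjusted p of the difference 0.000309). Ankrd55 rose in DKO cells from 37.7, 45.6 and 32.1 to 164, 144 and 88.9 and had a change of 0.23 in WT cells (adjusted p of the difference 0.0381). These 3 rose by more without Batf and Batf3, though the call for Ankrd55 was lost under 9 of 22 alternatives.

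In several genes with a large negative difference the level rose after day 2 in WT cells and stayed dim in DKO cells. Gzmb, granzyme B, read 15.5, 12.4 and 14.3 at day 2 and 188, 328 and 101 at day 4 in WT cells, and between 14.5 and 22.3 on all 6 DKO arrays (difference -3.56, adjusted p = 1.21e-05). Il10 went from 59.4, 77.7 and 38.9 to 472, 264 and 546 in WT cells and stayed between 7.5 and 10.1 in DKO cells (-2.82, adjusted p = 0.000185). Prdm1, which encodes Blimp-1, went from 20.7, 21.3 and 11.9 to 88.9, 63.3 and 69.5 in WT cells and stayed between 13.3 and 16.5 in DKO cells (-2.04, adjusted p = 0.000185). The DKO levels of these genes lay under the guide of 32.2 at both times, so the DKO changes near 0 are changes of background. Penk, Hgf and Cysltr1 likewise rose in WT cells and stayed under the guide on all 6 DKO arrays.

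Lif behaved otherwise. WT cells held 1510, 1550 and 2010 at day 2 and 1380, 1220 and 1890 at day 4, a change of -0.19 that was not called, while DKO cells fell 4.97-fold from a lower start (difference -2.12, adjusted p = 0.00289). Egln3 was likewise level in WT cells (0.09) and fell in DKO cells (difference -1.59, adjusted p = 0.0126; lost under 3 of 22 alternatives). Both DKO levels were well above the guide at day 2, so these falls are not changes of background. The AP-1 element (TGANTCA, both strands, in capitals) is shown for Lif and Gzmb because Batf binds such elements as a dimer with Jun; it begins at base -228 in Lif and -58 in Gzmb. It is in 7.81% of all windows, 8.08% of those of all genes tested, 6.29% of the windows of risen and 4.34% of those of fallen genes. Its share among the genes that differed between genotypes was not computed. Of other genes with a negative difference, Prdm1 had it in its window. Hgf, S100a6, Il21, Il1r2, Tigit, Egln3, Cxcr6, Dapl1 and Socs3 had no match. The composite AP-1 and IRF elements known as AICE were rarer, at 0.119% and 0.244% of all windows for their 2 spacings. Neither the Lif nor the Gzmb window held one.

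Lif, chr11:4257318-4257376, plus strand: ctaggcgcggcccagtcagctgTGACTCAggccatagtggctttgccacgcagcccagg
Gzmb, chr14:56262356-56262422, minus strand: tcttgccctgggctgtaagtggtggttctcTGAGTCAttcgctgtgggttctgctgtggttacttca

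Markers of other cells were mostly dim: 37 of 46 lay at or below the guide at both times in DKO cells. Called higher were Ctss, Cd79a and Pecam1, which made 3 of 46, and none was called lower. Of all genes tested 3.74% were called higher and 2.43% lower. The median change of the 46 markers was -0.01 against -0.02 for all genes, and 22 had a fitted change above 0. The summed intensity of 6 B cell markers ranged from 94.9 to 103 at day 2 and from 111 to 117 at day 4, of 14 antigen-presenting and myeloid markers from 435 to 570 and from 525 to 625, of 5 stroma markers, Pecam1 included, from 242 to 282 and from 332 to 376, and of 5 NK markers from 33.6 to 36.8 and from 32.8 to 34.1. The stroma and B cell sums were higher on every day 4 array than on any day 2 array. So was the sum of the 7 CD4 T cell markers (7580 to 9070, then 9360 to 9680). Of the 5 stroma markers 4, Col1a1, Col1a2, Col3a1 and Pecam1, lay above the guide. Cd8b1, Cd79b, Cd68, Cd74 and Ctss were the other markers above it. All 5 NK, 10 granulocyte, mast and basophil and 4 red cell and platelet markers lay at or below the guide. The part of other cells in the rises was not tested. In bulk RNA a rise from more cells of a kind and a rise per cell cannot be told apart. Of 15 T cell identity genes 5 rose and 0 fell (median 0.32), among them Trat1, an adaptor of the receptor complex, which went from 196, 131 and 84.2 to 326, 391 and 396 (log2 change 1.52, adjusted p = 0.000844), and Skap1 (0.79, adjusted p = 0.000516). That count was 2 without DKO 2.2 ng/ml replicate 1 or day 2 replicate 2 or 3, and 3 without 2.2 ng/ml replicate 2 or 3.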

How the data were processed

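Total RNA of 24 samples in 8 groups of 3 was hybridised to 1-colour arrays. The deposited intensities are linear values that the authors made with RMA, per the submitters' processing notes. Its software and settings were not given in the sources used here. Intensities ran from 1.95 to 14644.9 over 35556 probe sets, and the log2 of each deposited intensity was taken. Of the probe sets 21789 had 1 gene symbol in the platform annotation, 1621 several and 12146 none, and 21698 matched RefSeq. The brightest probe set was kept for each of 999 genes with several, leaving 19938 genes. Group means were fitted with limma 3.58.1 (R 4.3.3) on all arrays, and p-values are limma's moderated tests with Benjamini-Hochberg adjustment within each comparison. The fit was also run on simulated data with independent noise for each gene and array. Such data cannot test for deviations that genes share within an array.

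Gene lists and members were chosen with earlier results of these data known. Named genes were the largest non-overlapping called changes, the largest differences between genotypes and, from each list, the members with the smallest p. Named outside this rule, after their values were seen, were Cd4, Il5, Il13, Ikzf2, Tbx21, Ccr7, Foxo1, Foxp1, Lef1, Il7r, Il12rb1, Ifit1, Mx1, Oas2, Egr1, Egr2, Egr3, Nr4a1 and Mki67.

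Alternatives were cyclic loess, quantile normalization, a filter on dim genes, other probe set choices, array weights, a variance trend, only the compared groups, the replicate block and each array left out.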

Additional observations from a re-analysis of the deposited data

Results flagged for a closer look

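The change from day 2 to day 4 at 2.2 ng/ml differed between DKO and WT cells, by limma's test of the difference, in 30 of the genes named. The values below are the DKO log2 change minus the WT log2 change.

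In 20 genes the difference was negative. The values were -3.74 for Penk, -3.56 for Gzmb, -3.42 for Cd24a, -3.01 for Hgf, -2.99 for S100a6, -2.89 for Olfr60, -2.82 for Il10 and -2.51 for Cysltr1. They were -2.29 for Dapl1, -2.12 for Lif, -2.04 for Prdm1, -1.95 for Il21, -1.7 for Il1r2, -1.62 for Tigit, -1.59 for Egln3 and -1.58 for Cxcr6. Samd9l (-1.3), Batf itself (-1.09), Socs3 (-1.07) and Cd3g (-0.93) had smaller differences. In Lif and Egln3 the DKO cells fell while the WT change was not called.

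In the other 10 genes the difference was positive. Foxp3 (1.27), Ankrd55 (1.52), Ccr9 (1.37), Parp8 (1.87) and Ccnj (1.68) were called higher at day 4 in DKO cells. Il4 (2.34), Cpd (2.21), Atf3 (1.63), Gbp5 (1.56) and Nr4a3 (1.48) were called lower in WT cells with a smaller fall or no call in DKO cells. Il4 lay under 32.2 on all 6 DKO arrays.

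Of these 30 calls 16 were kept under every alternative and 14 were lost under some, most often those of Atf3, Nr4a3 and Samd9l, under 14 alternatives each, and Il4, under 11.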

How the results depend on the processing

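Among the named genes, no called value changed sign under the alternatives run. That covers 136 calls in DKO cells, 135 in WT cells, 30 for the difference between genotypes and 128 between doses. Other called genes were not all checked in this way. Which of the higher and lower counts was larger changed with scaling for 10 against 2.2 ng/ml and for both comparisons with day 0. Leaving out each array in turn gave 428 to 867 rises and 136 to 434 falls in DKO cells, 569 to 1122 and 654 to 1523 in WT cells, 18 to 90 and 42 to 93 for the difference between genotypes, and 577 to 806 and 466 to 647 for 10 against 2.2 ng/ml. For that dose comparison (891 and 734) the rises were 577 without DKO 2.2 ng/ml replicate 1, and the falls were 481 without it, 483 without 2.2 ng/ml replicate 2 and 466 without 10 ng/ml replicate 3. The positive differences between genotypes numbered 43, against 24 after quantile normalization, 23 with only the compared groups in the fit and 72 with array weights. The cause was not tested. Leaving out WT 2.2 ng/ml replicate 3 and WT day 2 replicate 3 together, an alternative added after seeing the data, gave 47. Equal replicate numbers did not go with a shared deviation (r from -0.085 to 0.068 between DKO days), and with the replicate block the DKO counts were 796 and 511. Of the named calls, 74 of 136 in DKO cells, 104 of 135 in WT cells and 16 of 30 for the difference were kept under every alternative. With 3 arrays a group, array number limits the precision, and genes near background have folds that are too small.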
